A study of Homo sapiens with 2 samples.

Results

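The 10 genes described here handle iron and were chosen by symbol, with earlier results of these data known. They encode the transferrin receptors (TFRC and TFR2), the iron importer SLC11A2, the ferritin chains (FTH1 and FTL), the ferritin cargo receptor NCOA4, the iron exporter ferroportin (SLC40A1), the hormone hepcidin (HAMP) and the iron-regulatory proteins (ACO1 and IREB2). Of these 10 genes, 8 were analysed among 16424 listed genes, and all 8 averaged 1 CPM or more over both libraries, where CPM is the number of tags scaled to the size of the library. TFR2 and HAMP were not analysed here. The values come from cap analysis of gene expression (CAGE), which reads where capped RNAs begin, so that 1 tag stands for the start of 1 transcript and CPM levels of different genes can be compared without scaling by length. The cells were PLC/PRF/5, a human hepatoma line that the study used as a poorly differentiated one. There was 1 library of non-treated cells and 1 of cells given 3 µg/ml M2BPGi, the Mac-2-binding protein glycan isomer, for 6 h. The libraries held 24040209 and 24862941 tags, totals that were read back from the steps in the CPM. With 1 library per condition no difference has a replicate check.

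The hepatoma label was compared with marker genes. Of 14 hepatocyte and hepatoma markers, 13 were analysed and none of these was at 0. Their summed level was 2947 CPM in non-treated and 2198 CPM in treated cells. The most abundant was the fibrinogen chain FGB, at 950.0 CPM in the non-treated and 623 CPM in the treated library. Among markers picked after their values were seen, AFP had 695 and 566 CPM, whereas ALB had only 8.82 and 7.04 CPM. The line thus held the fetal liver transcript at a high level and the albumin transcript at a low one. FGB, TF and TM4SF4 were the 3 markers at least 1.5-fold lower in treated cells, against 4.04% of all genes averaging 1 CPM or more. None of the 3 was 1.5-fold lower after rescaling to a median log2 ratio of 0, with -0.58 for FGB, -0.58 for TF and -0.56 for TM4SF4. The part of these markers in the values of the iron handling genes was not tested. Of 11 macrophage markers, 4 were analysed. PTPRC and CSF1R were at 0 in both libraries, and the 4 summed to 53.2 and 49.7 CPM, most of it LYZ. Of 9 stellate cell and fibroblast markers, 2 were analysed, with summed levels of 5.20 and 4.18 CPM led by COL3A1. Of 9 erythroid markers, 1 was analysed, HBA1, with 2.29 and 2.17 CPM. None of the 7 endothelial markers was analysed here.

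Most cells take up iron bound to transferrin through the transferrin receptor, store it in ferritin, a shell of heavy and light chains, and release it through ferroportin. When iron is scarce, the iron-regulatory proteins bind hairpins called iron-responsive elements, which protects transferrin receptor mRNA from decay through its 3′ untranslated region (UTR) and blocks the translation of ferritin mRNA through its 5′ UTR. The liver is a main store of iron and the source of hepcidin, which removes ferroportin from the cell surface.

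In M2BPGi-treated cells, the transcripts of both ferritin chains were at a higher level than in non-treated cells and those of the transferrin receptor were at a lower level. FTL was 1.51-fold higher, FTH1 was 1.5-fold higher, and TFRC was 1.52-fold lower. The other 5 genes, for import, export, ferritin turnover and iron sensing, lay within 1.5-fold. These are bulk libraries, in which fewer cells of a type and less RNA per cell cannot be told apart.

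**Figure D1:**
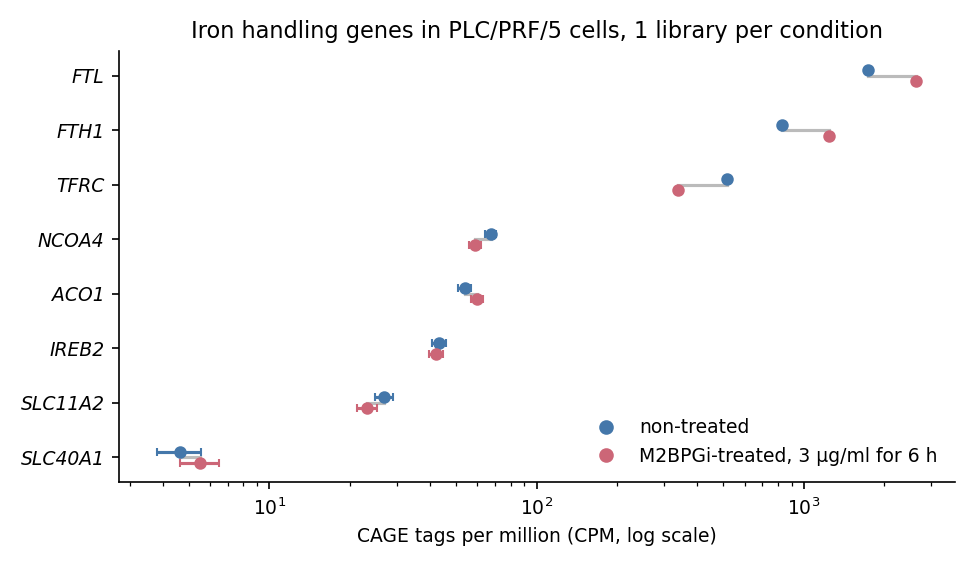
CAGE level of the 8 iron handling genes in CPM on a log axis, with 1 point for the non-treated and 1 for the M2BPGi-treated library and bars for the 95% counting interval of each. FTL, FTH1 and TFRC stand above the other genes, and their points are far apart relative to the bars, with the treated point to the right for FTL and FTH1 and to the left for TFRC.

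Differences are given as log2 ratios, treated over non-treated, with 1 CPM added to each value. This pseudocount makes the difference of genes at a low level look smaller. A ratio of 1.5-fold is 0.585 on this scale. Each interval of a ratio is the 95% Clopper-Pearson interval of the tag ratio without a pseudocount. Each interval of a CPM level is the exact 95% Poisson interval of the tags of that library. The sources used here name no molecular identifiers for the tags, so that these intervals cover counting error only and leave out the variation between cultures.

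TFRC (ENSG00000072274) encodes the receptor that carries transferrin-bound iron into the cell. It lies on the minus strand at chr3:196027183-196082189 (GRCh38, GENCODE v29). Its longest coding transcript has 5111 nt, of which 2661 are 3′ UTR. Iron-responsive elements were searched as a C, 5 bases, the loop CAGTGN and 5 bases that pair with the first 5, G with T allowed, on the transcribed strand. TFRC held 4 matches, all in the 3′ UTR in exon 19 of 19, at chr3:196050978-196051007, chr3:196050574-196050603, chr3:196050509-196050538 and chr3:196050462-196050491. They are shown because this gene has more matches than any other gene searched. The capitals mark the bulged C and the loop in 30 bases of its longest coding GENCODE v29 transcript, 5′ to 3′.
TFRC 1: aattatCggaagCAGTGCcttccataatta
TFRC 2: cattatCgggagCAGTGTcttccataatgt
TFRC 3: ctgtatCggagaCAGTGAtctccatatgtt
TFRC 4: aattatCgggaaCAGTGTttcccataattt
The 4 stretches share between 19 and 25 of their 30 bases with each other. The bulged C and the letters CAGTG are set by the search, so they count as shared in every pair of stretches compared here. Of 19684 protein-coding genes searched in their longest transcript, 260 (1.32%) held at least 1 match and 1 (0.00508%) held at least 4, which was TFRC. A match describes letters and possible pairs and is not a measured binding site.

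TFRC was at 515 CPM (95% interval 506 to 524) in non-treated cells and at 338 CPM (331 to 346) in treated cells. The intervals do not overlap, and the level was lower in the treated library. Its log2 ratio was -0.60 (-0.65 to -0.57). This interval contains -0.585, so counting error alone could place TFRC on either side of 1.5-fold. Among the 13724 genes averaging 1 CPM or more, the log2 ratio of TFRC was at percentile 3.62, and among the 1924 genes averaging 100 CPM or more at percentile 1.61. By level, TFRC ranked 259 among all listed genes in non-treated cells and 482 in treated cells. It remained one of the more abundant transcripts in both libraries.

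The letters ACGTG, the core of the element that hypoxia-inducible factors bind, were searched on both strands from 250 bases before to 50 bases after each start in RefSeq (GRCh38.p14). The TFRC window held 1 match, 88 to 84 bases upstream of the start. It is shown because TFRC is known as a target of these factors, with capitals for the motif, at chr3:196082161-196082190 on the minus strand, upstream of the RefSeq start and at the 5′ end of the GENCODE v29 gene.
TFRC promoter: cctcgcgagcgtACGTGcctcaggaagtga
FTL also held 1 match, which begins 11 bases upstream of its start. SLC40A1, SLC11A2, NCOA4, ACO1 and IREB2 held 0 matches, and windows were given for 7 of the 8 genes. Of 35116 promoter windows, 7518 (21.4%) hold these letters, so that a match in TFRC or FTL is a common feature, and nothing follows from it about the factor.

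SLC11A2 (ENSG00000110911), on the minus strand at chr12:50979401-51028566, encodes the transporter that moves ferrous iron out of the endosome after uptake. It was at 26.8 CPM (24.8 to 29) in non-treated cells and 23.2 CPM (21.4 to 25.2) in treated cells. These intervals overlap. The log2 ratio was -0.20 (-0.37 to -0.05), which is below 0 by counting error and within 1.5-fold. The percentile among all genes averaging 1 CPM or more was 30.7, well inside their bulk. The importer was thus at a far lower level than the receptor in both libraries. Its longest coding transcript held 0 matches to the iron-responsive element as searched, although other transcripts of the gene are known to carry one.

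FTH1 (ENSG00000167996) encodes the heavy chain of ferritin, which oxidises iron for storage, and FTL (ENSG00000087086) the light chain, which helps to form the iron core. FTH1 lies on the minus strand at chr11:61959718-61967660 and FTL on the plus strand at chr19:48965301-48966878. FTL held 1 match to the iron-responsive element, in the 5′ UTR in exon 1 of 4, which is shown because ferritin is the classic case of control through this hairpin. The stretch is at chr19:48965335-48965364, with its loop beginning at base 53 of the longest coding transcript. The capitals again mark the bulged C and the loop.
FTL: ctcttgCttcaaCAGTGTttggacggaaca
The FTL stretch shares between 11 and 13 of 30 bases with the TFRC stretches printed above, fewer than these share with each other. A match within the first 250 bases of the transcript was found in 18 of 19684 genes (0.0914%). Of these 18 genes, 11 were analysed, 8 of them outside the iron handling genes. None of these 8 was at least 1.5-fold higher or lower, and their median log2 ratio was -0.16. Since 1.60% of all genes were at least 1.5-fold higher and 4.04% lower, 0 of 8 says nothing about such a match.

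**Figure D2:**
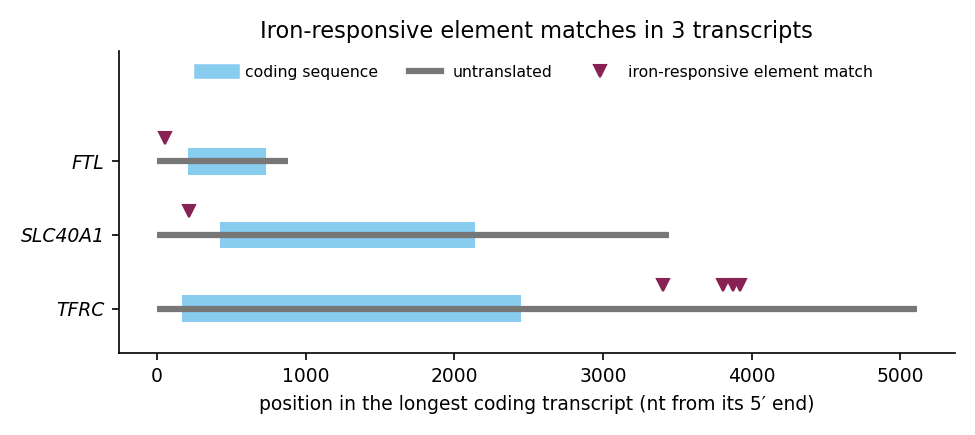
Positions of the iron-responsive element matches (triangles) in the longest coding transcript of 3 genes, in nt from the 5′ end, with coding sequence as wide bars and untranslated parts as thin lines. The single matches of FTL and SLC40A1 lie before the coding sequence, and the 4 matches of TFRC lie after it.

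FTL was at 1737 CPM (1721 to 1754) in non-treated cells and 2625 CPM (2605 to 2645) in treated cells. The intervals are far apart, with the higher level in the treated library. FTL had a log2 ratio of 0.60 (0.58 to 0.61). FTH1 was at 829 CPM (817 to 840.3) in non-treated cells and 1246 CPM (1232 to 1259.9) in treated cells. Here too the treated library had the higher level and the intervals do not overlap. FTH1 had a log2 ratio of 0.59 (0.56 to 0.61). Both ratio intervals contain 0.585, so that the ferritin chains stand at the 1.5-fold threshold rather than clearly past it. FTL was at percentile 98.5 of all genes averaging 1 CPM or more and 98.2 of those averaging 100 CPM or more. FTH1 was at percentile 98.1 of the latter. FTL ranked 36 by level in non-treated cells and 10 in treated cells, and FTH1 ranked 133 and 76. The ferritin transcripts were thus among the most abundant of all listed genes in both libraries.

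The transcripts of the ferritin chains summed to 2566 CPM in non-treated and 3871 CPM in treated cells. FTL exceeded FTH1 by a ratio of 2.10 (2.06 to 2.13) in non-treated cells and 2.11 (2.08 to 2.14) in treated cells. The balance of light to heavy chain transcripts was therefore the same within counting error. The ratio of ferritin to TFRC transcripts was 4.99 (4.89 to 5.08) in non-treated cells and 11.4 (11.2 to 11.7) in treated cells. Storage transcripts thus outnumbered receptor transcripts in both libraries, and by a wider margin in the treated one. These levels are of transcripts, and the ferritin and receptor proteins were not analysed here.

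Ferritin genes have processed copies elsewhere in the genome, and how tags were assigned to them is not given in the sources used here. Within the first 500 nt, FTH1 had 12 copies that align with 95% identity or more across 100 nt or more, of which 7 were analysed, and FTL had 2, of which 1 was analysed. TFRC, SLC11A2, SLC40A1, NCOA4, ACO1 and IREB2 had 0. The 9 listed genes named as FTH1 copies summed to 0.450 CPM in non-treated and 0.280 CPM in treated cells, which is 0.0543% and 0.0225% of FTH1. By the mean of both libraries FTH1P16 and FTH1P2 were the highest of them, with 0.330 and 0.0400 CPM in non-treated cells and 0.20 and 0.0800 CPM in treated cells. FTH1P8 had 0.0800 CPM in non-treated cells and was at 0 in treated cells. Of the 4 listed FTL copies, only FTLP3 was above 0, with 35.7 and 34.8 CPM, or 2.05% and 1.33% of FTL. It matches FTL with 98.6% identity over 293 nt that begin at base 208, the first coding base. FTLP3 did not share the higher level of FTL in the treated library. The difference in FTL was 888 CPM and that in FTH1 417 CPM, and the part of tag assignment in them was not tested. Copies that are not listed were not analysed here, and FTH1 and FTL are uncertain to that extent. BEST1 overlaps FTH1 on the opposite strand and was not analysed here.

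NCOA4 (ENSG00000138293) encodes the receptor that delivers ferritin to the lysosome, where its iron is released. It was matched to GENCODE v29 by symbol, at chr10:46005088-46030714. The strand is plus in the deposited values and minus in GRCh38, which is not the build of the mapping. NCOA4 was at 67.3 CPM (64.0 to 70.6) in non-treated cells and 58.7 CPM (55.7 to 61.8) in treated cells. The level was lower in the treated library, without overlap of the intervals. The log2 ratio was -0.19 (-0.30 to -0.09), at percentile 31.6 of all genes averaging 1 CPM or more. This is within 1.5-fold and within the bulk of all genes, whereas FTH1, the ferritin chain that NCOA4 binds, was near the upper end.

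SLC40A1 (ENSG00000138449), on the minus strand at chr2:189560579-189583758, encodes ferroportin, the exporter of iron. It held 1 match to the iron-responsive element in the 5′ UTR in exon 1 of 8, at chr2:189580660-189580689, with the loop beginning at base 217 of its longest coding transcript. The stretch is shown for comparison with ferritin, since the gene shares the place of the hairpin but stood at a low level.
SLC40A1: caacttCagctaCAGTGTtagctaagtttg
It shares 14 of 30 bases with the FTL stretch and between 13 and 16 with the TFRC stretches. SLC40A1 was at 4.62 CPM (3.8 to 5.56) in non-treated cells, from 111 tags, and 5.51 CPM (4.63 to 6.51) in treated cells, from 137 tags. The log2 ratio was 0.21 (-0.12 to 0.63). The interval includes both 0 and 0.585, so no difference was detectable at this depth, and one as large as that of the ferritin chains lies within the interval. SLC40A1 was the least abundant of the 8 genes in both libraries.

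ACO1 (ENSG00000122729), on the plus strand at chr9:32384603-32454769, encodes iron-regulatory protein 1, which is the cytosolic aconitase when it holds an iron-sulfur cluster. It was at 53.9 CPM (51.0 to 56.9) in non-treated cells and 59.7 CPM (56.7 to 62.8) in treated cells. ACO1 had a log2 ratio of 0.14 (0.04 to 0.26), above 0 by counting error and small. IREB2 (ENSG00000136381), on the plus strand at chr15:78437431-78501456, encodes iron-regulatory protein 2, which is degraded when iron is plentiful. It was at 43.1 CPM (40.5 to 45.8) in non-treated cells and 42.2 CPM (39.7 to 44.8) in treated cells. IREB2 had a log2 ratio of -0.03 (-0.16 to 0.09), so that no difference was detectable at this depth. The ratio of ACO1 to IREB2 transcripts was 1.25 (1.15 to 1.36) in non-treated and 1.42 (1.31 to 1.53) in treated cells, with intervals that overlap. Neither gene held a match to the iron-responsive element, and neither did NCOA4. The activity of both proteins depends on iron and was not analysed here.

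The order of levels was FTL, FTH1, TFRC, NCOA4, ACO1, IREB2, SLC11A2 and SLC40A1 in non-treated cells, and none of these neighbours overlapped in their counting intervals. In M2BPGi-treated cells ACO1 stood before NCOA4, and the intervals of these neighbours overlapped. No other place in the order differed between the libraries. The levels span from the abundant storage and uptake transcripts down to the exporter at a few CPM.

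Of the 8 genes, 2 (FTL and FTH1) were at least 1.5-fold higher in treated cells, against 1.60% of the 13724 genes averaging 1 CPM or more. One of the 8 (TFRC) was at least 1.5-fold lower, against 4.04% of these genes. Among the 1924 genes averaging 100 CPM or more, which include FTL, FTH1 and TFRC, 2.03% were at least 1.5-fold higher and 1.92% were lower by as much. Both shares of the 8 genes are above the background, but they rest on 3 genes near the threshold. The genes were also chosen with earlier results of these data known, so the shares are no independent comparison with the background. None of the 8 was 2-fold higher or lower, against 0.240% and 0.430% of all genes, so that at 2-fold the 8 genes do not stand out. After rescaling the libraries to a median log2 ratio of 0 over the genes averaging 10 CPM or more, a shift of 0.03, TFRC was at -0.58 and fell short of 1.5-fold, which gave 2 higher and 0 lower, as did an equal upper quartile, an alternative chosen after seeing the data. After rescaling to the sum over the listed genes, chosen likewise, FTH1 was at 0.58 and the split was 1 higher and 1 lower.

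**Figure D3:**
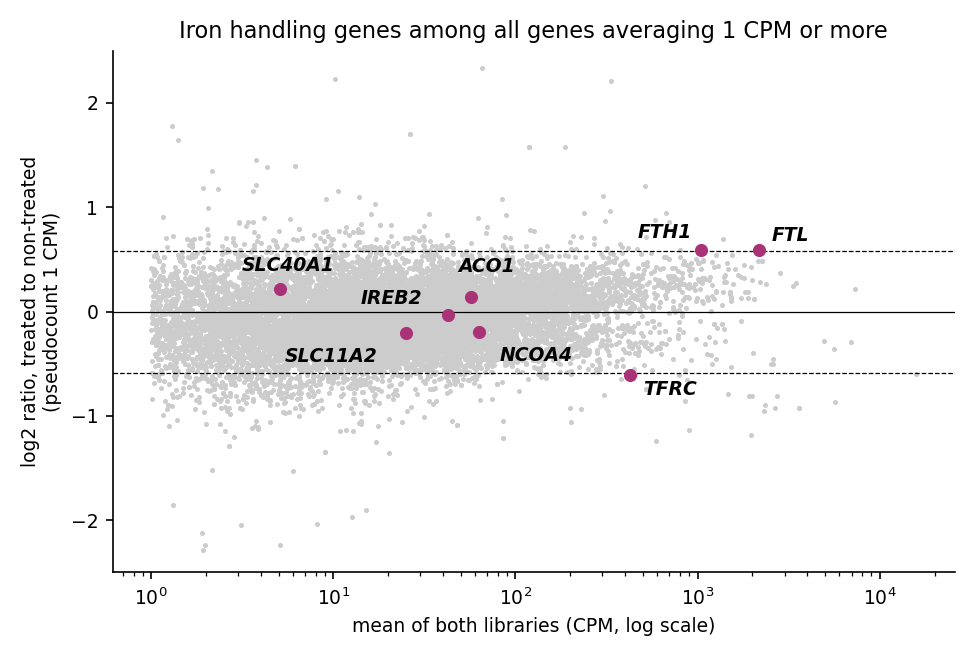
Log2 ratio, treated over non-treated, against the mean CPM on a log axis, for the genes averaging 1 CPM or more (grey), except 16 genes beyond 2.5 in either direction, and the 8 iron handling genes (purple), with dashed lines at 1.5-fold. FTL, FTH1 and TFRC lie on the dashed lines at the abundant end, and the other 5 lie within the grey cloud.

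The median log2 ratio of the 8 genes was 0.06, with 4 above 0 and 4 below. Without SLC40A1, which averaged under 10 CPM, it was -0.03. For all genes averaging 1 CPM or more the median was -0.05, with a central 95% from -0.67 to 0.52. FTL and FTH1 lay above this range and TFRC lay within it. For genes averaging 100 CPM or more the median was 0.10, with a central 95% from -0.56 to 0.55, and FTL, FTH1 and TFRC all lay outside. The 8 genes thus had no common direction, and their median says little of any of them. With 2 libraries every pair of genes has a correlation of 1 or -1, so no likeness of pattern between genes was computed.

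Log2 ratios in these libraries went with transcript length. Among genes averaging 10 CPM or more, of which 97.4% had a length, split into 5 groups of nearly equal size by length, the median was 0.11 in group 1, with the shortest transcripts, and -0.12 in group 5, with the longest. FTL, with 878 nt, and FTH1, with 1229 nt, were in group 1, at percentiles 97.5 and 97.2 of it. In this group 2.92% of genes were at least 1.5-fold higher. TFRC was in group 4, whose median was -0.06, at percentile 1.63, and 1.95% of this group was at least 1.5-fold lower. FTL, FTH1 and TFRC were thus near the ends of the range of genes of similar length as well. The part of length in their values was not tested further.

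**Figure D4:**
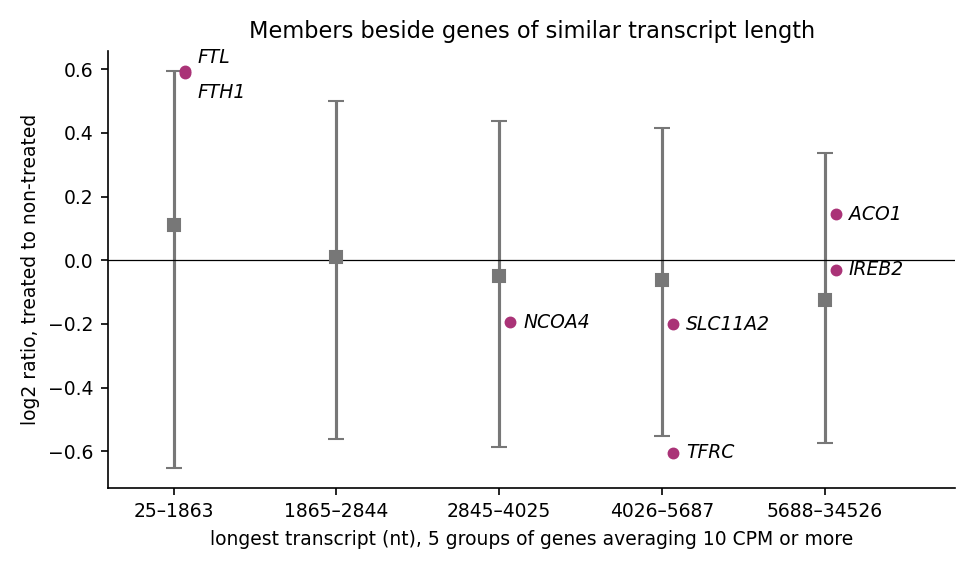
Log2 ratio of 7 iron handling genes (purple) beside the median (squares) and central 95% (bars) of genes in 5 groups of transcript length in nt, for genes averaging 10 CPM or more. The medians go from 0.11 in the shortest to -0.12 in the longest group, and TFRC lies below the bar of its group while FTL and FTH1 lie at the upper end of theirs.

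Genes around the 8 were described by 10 lists. Besides the 8 genes, the lists held 133 genes averaging 1 CPM or more, of which 2 (1.5%) were at least 1.5-fold higher and 5 (3.76%) were lower by as much, near the shares of all genes. Their median log2 ratio was 0.01. Pooled, these 133 genes thus did not stand apart from all genes by their counts. Among single lists, iron uptake and endosomal release had 2 of 9 genes lower. Mitochondrial iron import and iron-sulfur cluster assembly had 2 of 23 higher. Of all genes averaging 1 CPM or more, 4.04% were lower and 1.60% were higher by as much. Each of these list counts rests on 2 genes. Neither of the 2 lower ones was 1.5-fold lower after rescaling to a median log2 ratio of 0.

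On the uptake side of TFRC, the list of iron uptake and endosomal release had 9 genes, with 0 higher and 2 lower by 1.5-fold and a median of -0.26. The lower ones were the lysosomal channel MCOLN1, with 63.4 and 41.6 CPM (log2 ratio -0.60), and transferrin itself (TF, named after its value was seen), with 6.61 and 4.02 CPM (-0.60). Neither was 1.5-fold lower after rescaling to a median log2 ratio of 0, with -0.57 for MCOLN1 and -0.58 for TF, or with a pseudocount of 5 CPM. The ferric reductase STEAP2 had 22.2 and 14.8 CPM (-0.56), EXOC6 had 20.8 and 19.8 CPM (-0.07), and the sorting nexin SNX3, which recycles the transferrin receptor, had 324 and 381 CPM (0.23). Below 0 were 8 of these 9 genes and 7826 of the 13724 genes in all, and the counting intervals of EXOC6 and SLC39A8 included 0. On the storage side of FTH1 and FTL, 5 genes for ferritin loading, ferritinophagy and iron chaperones had a median of 0.18, with none past 1.5-fold. The iron chaperone PCBP2 had 101 and 128 CPM (0.34), PCBP4 had 49.0 and 58.9 CPM (0.26), TAX1BP1 had 75.8 and 83.1 CPM (0.13) and PCBP1 had 189 and 186 CPM (-0.03). Mitochondrial ferritin (FTMT) was at 0 in both libraries, where a count of 0 tags allows 0.125 CPM in non-treated and 0.121 CPM in treated cells. Beside the 1.60% and 4.04% of all genes past 1.5-fold, 0 of 5 is no result about the genes that load and turn over ferritin.

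Beside the exporter SLC40A1, only 2 genes for iron export and plasma carriers averaged 1 CPM or more. The ferroxidase CP, which works with ferroportin, had 22.8 and 14 CPM (-0.67) and was at least 1.5-fold lower, though not with a pseudocount of 5 CPM (-0.55), and the list median was -0.49. Control of hepcidin, whose own gene was not analysed here, had 17 genes with none past 1.5-fold and a median of -0.24. Among all genes averaging 1 CPM or more, 1.60% were at least 1.5-fold higher and 4.04% were lower by as much. The lowest ratios were those of the interleukin-6 receptor chain IL6ST, with 81.5 and 54.4 CPM (-0.57), and the BMP receptor ACVR1, with 21.5 and 15.6 CPM (-0.44). Among genes averaging 10 CPM or more the highest were those of ID1, a target of BMP signalling, with 281 and 273 CPM (-0.04), and STAT3, with 58.0 and 59.1 CPM (0.03).

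For the iron-regulatory proteins ACO1 and IREB2, 14 genes that control them had a median of 0.13, with none past 1.5-fold. NUBP2 had 35.6 and 46.4 CPM (0.37), RBX1 had 153 and 193 CPM (0.34), NARFL had 37.8 and 32.1 CPM (-0.23) and NDOR1 had 45.3 and 34.8 CPM (-0.37). Of the 14 genes, 11 were above 0, beside 5881 of the 13724 genes in all, and the counting intervals of FBXL5, MMS19, CUL1 and NUBP1 included 0. Mitochondrial iron import and iron-sulfur cluster assembly had 23 genes, 2 higher, 0 lower and a median of 0.11. Of all genes averaging 1 CPM or more, 1.60% were at least 1.5-fold higher and 4.04% were lower by as much. The share higher in this list is above that background but rests on 2 genes, and the list was chosen with earlier results known. The higher ones were BOLA3, with 66.1 and 109.6 CPM (0.72), and BOLA1, with 304 and 467 CPM (0.62), which act late in cluster delivery. ABCB8 had 23.2 and 15.7 CPM (-0.53) and ABCB10 had 21.3 and 16.7 CPM (-0.34). With the pseudocount of 1 CPM, BOLA1 and BOLA3 were the only list genes other than FTL and FTH1 that were at least 1.5-fold higher.

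Haem synthesis, transport and breakdown had 21 genes, 0 higher, 1 lower and a median of 0.15. Beside 1.60% of all genes higher and 4.04% lower, these counts are no result about the list. The haem exporter FLVCR1 had 52.1 and 31.5 CPM (-0.71), and the folate and haem carrier SLC46A1 had 16.5 and 12.8 CPM (-0.34). The synthesis enzyme UROD, with 88.8 and 123 CPM (0.47), had the highest ratio among genes averaging 10 CPM or more. Of the mRNAs known to carry an iron-responsive element, 9 were analysed, 5 of them among the 8 genes described above, and the median was 0.13, which turned to -0.08 over those averaging 10 CPM or more. FTL and FTH1 were the 2 highest and TFRC and SLC11A2 the 2 lowest of those averaging 10 CPM or more, so that the genes at both ends of this list are the iron handling genes themselves.

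Hydroxylases that need iron had 21 genes, 0 higher, 1 lower and a median of -0.14, or -0.25 over those averaging 10 CPM or more. The 1 of 21 lower is near the 4.04% of all genes, of which 1.60% were higher. The collagen lysyl hydroxylase PLOD2 had 67.7 and 42.6 CPM (-0.66), ASPH had 343 and 238 CPM (-0.53), EGLN3 had 67.2 and 74.5 CPM (0.15) and HIF1AN had 27.6 and 33.9 CPM (0.29). EGLN3 and HIF1AN, which act on hypoxia-inducible factors, were within 1.5-fold. Ferroptosis regulators had 18 genes, none past 1.5-fold, and a median of 0.10. KEAP1 had 21.1 and 30 CPM (0.49), HSPB1 had 271 and 377 CPM (0.47), SLC3A2 had 164 and 149 CPM (-0.14) and LPCAT3 had 142 and 112 CPM (-0.35).

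**Figure D5:**
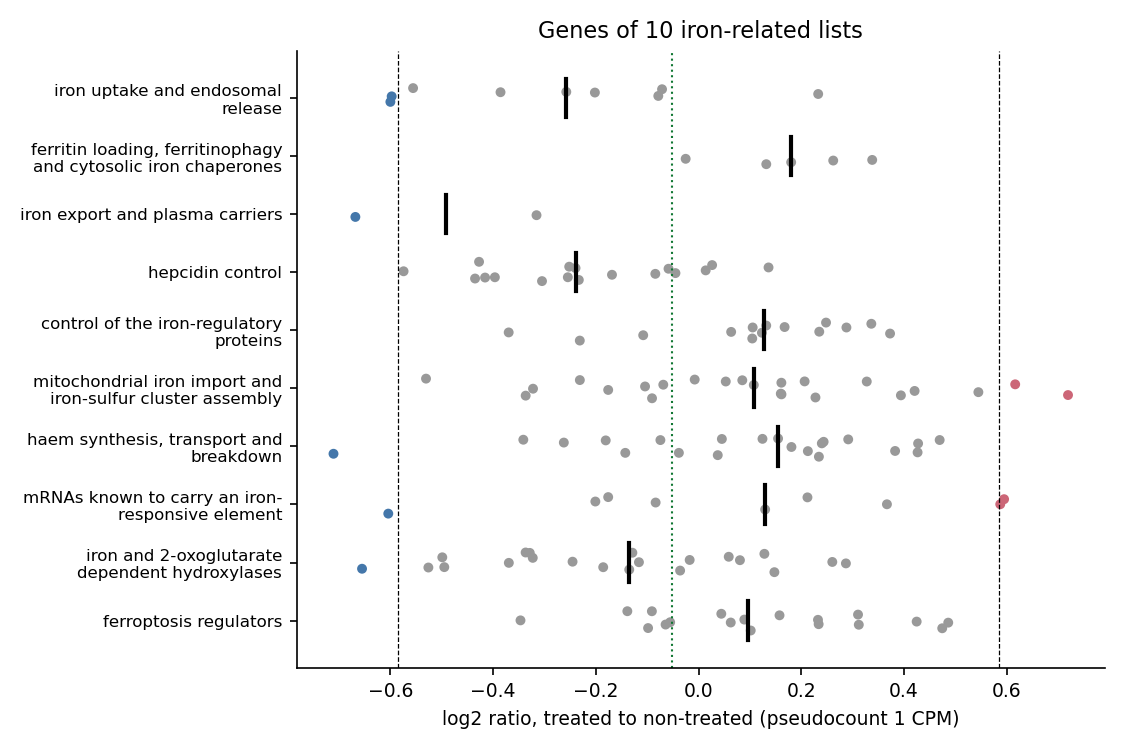
Log2 ratio, treated over non-treated, for each gene averaging 1 CPM or more in the 10 lists, with bars at the list medians, dashed lines at 1.5-fold and a dotted line at the median of all genes, -0.05. Coloured points are past 1.5-fold and include FTL, FTH1 and TFRC in the list of mRNAs with an iron-responsive element; vertical scatter has no meaning.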

How the data were processed

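CAGE libraries of PLC/PRF/5 cells, 1 non-treated and 1 M2BPGi-treated, were compared. The deposited unit is CPM for each gene, given by the authors with 2 decimals. The submitters' processing notes name hg19, BWA and HISAT2, while the paper's methods name a mouse genome. The deposited gene identifiers are those of human genes. The assignment of tags to genes is not given in the sources used here.

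Tag numbers were read back from the steps in the CPM. All values above 0 (100%) were whole multiples of 1 tag within the rounding, but the 2 decimals are coarse beside the step of 1 tag. Tests on tag counts were therefore not run. The tags serve only for tag numbers, the level that 0 tags allow, Clopper-Pearson intervals of ratios and Poisson intervals of levels. No test of the conditions is possible.

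The members and lists were chosen with earlier results of these data known. Named genes are all members, the 2 highest and 2 lowest log2 ratios of each list among genes averaging 10 CPM or more, the 3 most abundant ferritin copies, and of each marker list the most abundant gene and the markers at 0. One such list gene and the hairpin search in FTH1 are not reported here. Any other gene was named with its value known. Log2 ratios and counts were repeated with other pseudocounts, filters, a fold threshold of 2 and rescaling.

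Loci and transcripts are from GENCODE v29 (GRCh38), matched by identifier or, for NCOA4, by symbol, and promoters from RefSeq (GRCh38.p14). Copies were searched with BLAST+ 2.17.0. Python 3.11.15, pandas 2.3.3, scipy 1.17.1 and matplotlib 3.10.9 were used. The calls and the tag read-back were tested on simulated data with 2-fold changes and counting error only. Such data do not cover variation between cultures or differences near 1.5-fold.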

Additional observations from a re-analysis of the deposited data

How the results depend on the processing

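No paired analysis was possible because there is 1 library per condition, so that no library could be left out either. The trimmed-mean scaling and the tests on tag counts were not run. The equal upper quartile and the sum over the listed genes were chosen after seeing the data. Of 40 log2 ratios of the iron handling genes under other settings, 36 stayed within their counting interval and 0 changed sign. The others were FTH1 and FTL, at 0.62 and 0.62 with a median log2 ratio of 0 and 0.62 and 0.63 with an equal upper quartile. Of 70 list medians, 65 moved by at most 0.1 and 1 changed sign. With a pseudocount of 0.1 CPM, 336 genes were at least 1.5-fold higher and 856 lower, and the export list had a median of -0.63. With 5 CPM these were 91 and 164, the list genes lower were 2, and the export median was -0.33. With a median log2 ratio of 0, 0 iron handling genes and 3 other list genes were lower, as with an equal upper quartile (0 and 3). With the sum over the listed genes, 1 iron handling gene was higher. With a mean CPM of at least 10, which leaves out SLC40A1, the median of the iron handling genes was -0.0298, 135 genes were higher and 223 lower, and the medians were -0.67 for export, -0.0836 for mRNAs with an iron-responsive element and -0.25 for hydroxylases. At 2-fold, 0 iron handling genes and 0 other list genes were higher or lower, with 33 and 59 of all genes. These shifts follow from fewer genes or another threshold where those were set, and otherwise the cause was not tested. Depth limits SLC40A1 most.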
